A study of Homo sapiens with 27 samples.

Results

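The semaphorins, plexins, neuropilins, Eph receptors, ephrins, Slits, and Robos are the main ligands and receptors that steer growing axons, and 58 of their genes were followed through the differentiation of human embryonic stem cells toward the retina. The genes were taken by symbol, with no measured value in the rule, though the list was chosen with earlier results of these data known. All 58 were found among the 44852 genes of the expression table. They are 7 class 3 semaphorins, 13 other semaphorins, 9 plexins, 2 neuropilins, 8 EphA and 5 EphB receptors, 5 ephrin-A and 3 ephrin-B ligands, 3 Slits, and 3 Robos. EPHA10 and ROBO4 are not among the 58 and are counted with the other axon guidance genes below. Cells of H1, an established embryonic stem cell line, were grown on LN523, LN323, or LN521 and collected at days 2, 22, and 32, with 3 libraries for each matrix and day, 27 in all. LN523, LN323, and LN521 are laminins, the adhesive proteins of basement membranes, and LN523 is an isoform of the matrix around photoreceptors. The sample labels combine LN523 and LN521 each with LN323 and list LN323 by itself, whereas the study's methods describe LN523 and LN323 each mixed with LN521 and LN521 by itself. The leading isoform gives each matrix its name below. Cells at day 2 were labelled undifferentiated. From day 2 all cultures received CKI-7 and SB431542 for neural induction and then a photoreceptor differentiation medium with BDNF, CNTF, retinoic acid, and DAPT, an inhibitor of Notch signaling. Each library held the RNA of a whole culture of a single cell line, so a change in the share of cells of a type and a change of RNA per cell cannot be told apart. The labels do not say that the 3 libraries of a group came from separate cultures, and p-values then measure the spread between these libraries, which may be technical.

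Guidance ligands act at short or long range on the growth cone, the motile tip of an axon. Secreted class 3 semaphorins bind neuropilins that signal through plexins, membrane-bound semaphorins bind plexins directly, GPI-anchored ephrin-A and transmembrane ephrin-B ligands act on Eph receptor kinases of neighboring cells, and secreted Slits repel axons that carry Robo receptors. In the retina these systems guide ganglion cell axons to the optic disc, through the optic chiasm, and to ordered targets in the brain, and many members also act in cell sorting, epithelia, and vessels.

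Total counts ranged from 25620624 to 47340990 per library. In the fit on all libraries the biological coefficient of variation was 45.1%. Between days 2 and 22 the summed level of 5 pluripotency markers went from a median of 4093 to 9.56 TPM (the length-corrected transcript level deposited by the authors, with the same sum in each library), and that of 5 retinal progenitor markers from 3.42 to 1314 TPM. Of 6 photoreceptor markers, 5 had higher medians at day 22 than at day 2 and all 6 had higher medians at day 32 than at day 22, most from low levels. OTX2 went the other way between days 2 and 22, from a median of 101 to 31.3 TPM. The summed level of the 6 went from a median of 103 to 39.2 TPM and then to 56.9 TPM at day 32. Between days 22 and 32 the medians went from 3.21 to 6.61 TPM for the transcription factor CRX, from 0.57 to 10.1 for RBP3 (at most 46.0), from 0.826 to 5.75 for PRDM1, from 2.00 to 2.01 for NRL, from 31.3 to 35.2 for OTX2, and from 0.108 to 0.321 for recoverin (RCVRN). Recoverin was at 0 in 3 of the 9 day 22 libraries and in none at day 32, where it reached 6.05 TPM. The 6 retinal ganglion cell markers summed to 106 to 143 TPM at day 2, to 33.8 to 325 TPM at day 22, and to 211 to 851 TPM at day 32. The medians of these sums were 119, 107, and 427 TPM. A few libraries stood apart. The lane 1 library of LN521 at day 22 held 190 TPM of the pluripotency markers against 5.37 to 12.7 TPM in the others of that day. The lane 2 libraries of LN523 and LN323 held 2951 and 2067 TPM of 5 mesenchyme markers at day 22, and 5155 and 8308 TPM at day 32, against 766 to 1612 and 962 to 3057 TPM in the others.

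The guidance genes were broadly expressed. All 9 libraries reached 1 TPM for 49 members at day 2, for 52 at day 22, and for 53 at day 32. Of all genes, 32.7%, 34.1%, and 34% did so. In all 27 libraries 45 of the 58 members reached 1 TPM, beside 12981 of all 44852 genes. A single member value was 0, EPHA8 in a LN523 library of day 22. At day 2 the members with the highest median TPM were EPHB4 (183), EPHA1 (164), SEMA6B (121), SEMA4C (90.7), and SEMA6A (89.0). At day 22 they were EFNB2 (426), PLXNB2 (242), EPHA2 (188), EFNB1 (181), and EPHB4 (144). The leading genes were thus Eph receptors and transmembrane semaphorins in undifferentiated cells, and ephrin-B ligands, a plexin, and Eph receptors at day 22.

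**Figure D1:**
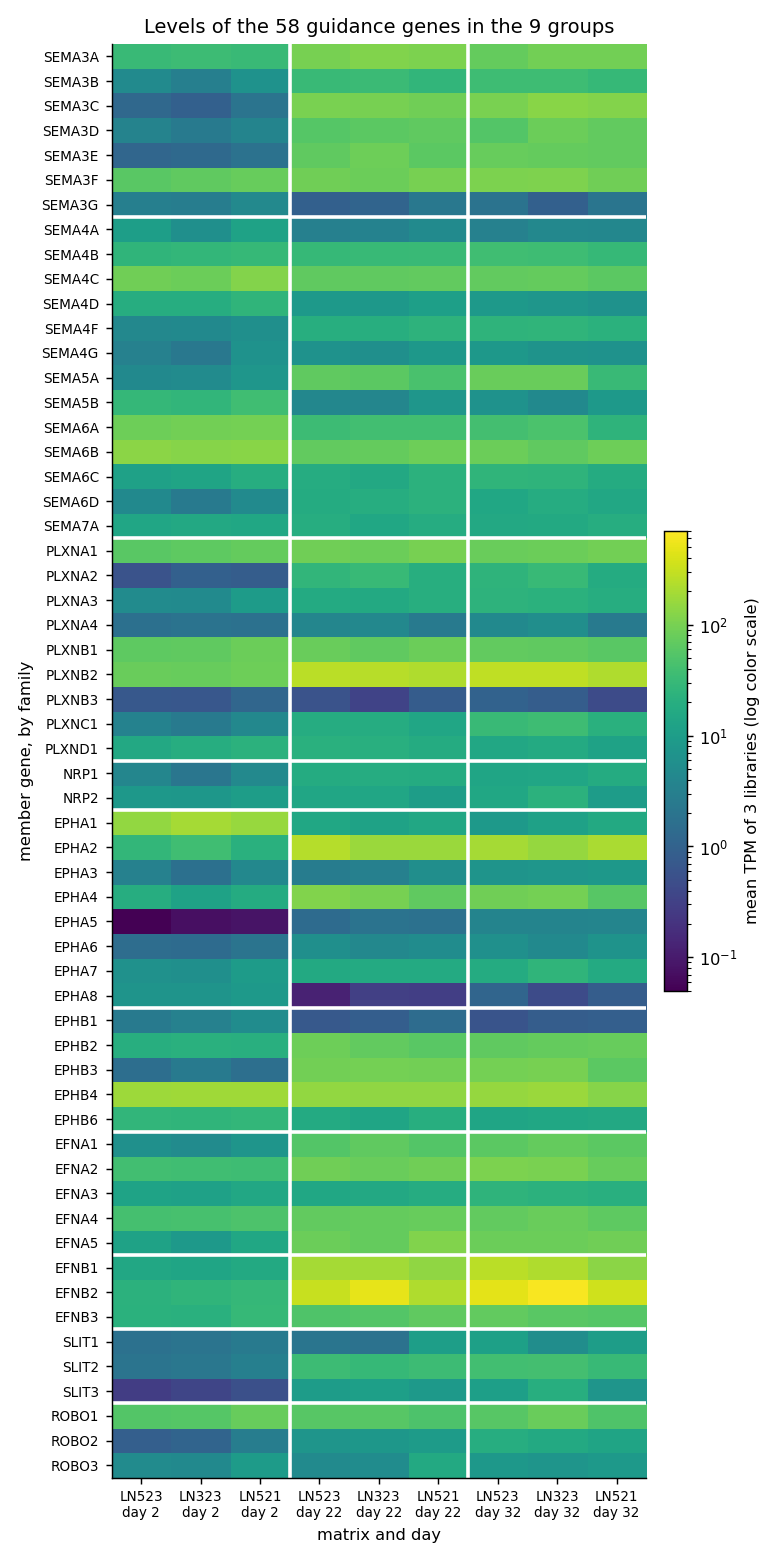
Mean TPM of 3 libraries for each of the 58 members (rows, by family, with white lines between families) in the 9 groups (columns), on a log color scale. The group means of EPHA1 go from 148 to 192 TPM at day 2 to 8.39 to 16.5 TPM later, and those of EPHB3 from 1.57 to 2.57 TPM to 63.8 to 100 TPM.

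The families were led by different members at different times. The highest group mean of the class 3 semaphorins was that of SEMA3C (130 TPM on LN323 at day 32), of the other semaphorins SEMA6B (132 TPM on LN523 at day 2), and of the plexins PLXNB2 (285 TPM on LN523 at day 32). NRP2 led the neuropilins at 23.0 TPM, EPHA2 the EphA receptors at 240 TPM, and EPHB4 the EphB receptors at 180 TPM. EFNA5 led the ephrin-A ligands at 116 TPM, EFNB2 the ephrin-B ligands at 647 TPM, SLIT2 the Slits at 40.7 TPM, and ROBO1 the Robos at 80.0 TPM. Slits and neuropilins were thus the least abundant families per length, and ephrin-B ligands, with 3 genes, reached the highest sums. The median summed level over the 9 libraries of a day went from 64.3 TPM at day 2 to 664 at day 22 and 824 at day 32 for the ephrin-B ligands. For the class 3 semaphorins it was 116, 468, and 439 TPM, for the Slits 5.12, 42.9, and 61.9 TPM, and for the ephrin-A ligands 117, 308, and 337 TPM. The plexins went from 240 to 477 and 512 TPM. Day 2 did not overlap the later days in any of these sums. The Robos, at 69.2, 64.5, and 82.6 TPM, and the other semaphorins, at 445, 384, and 378 TPM, overlapped between all days.

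**Figure D2:**
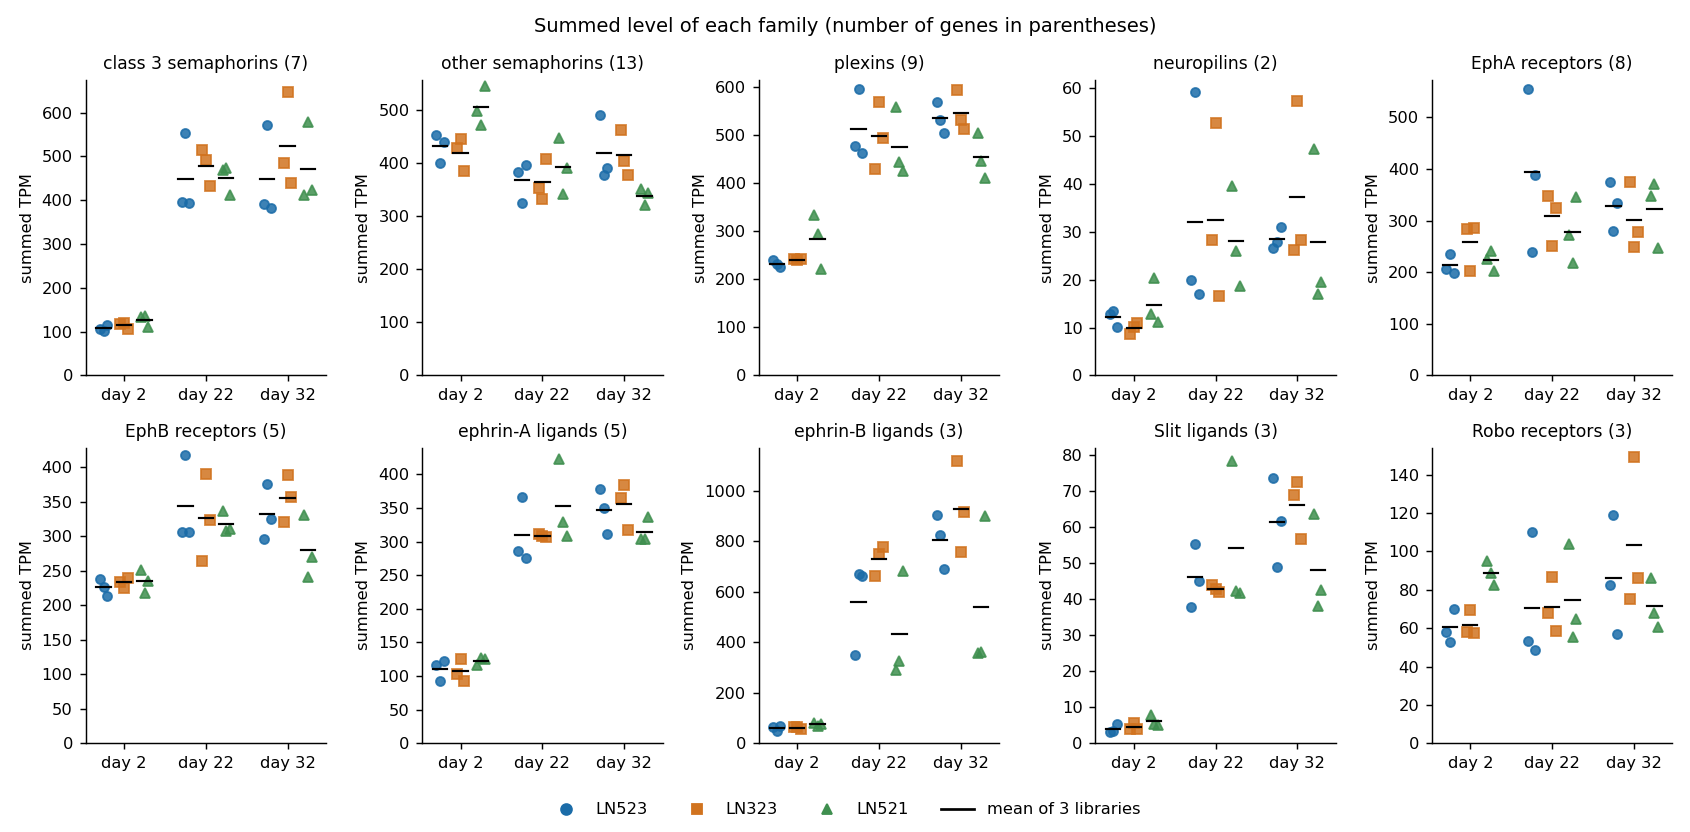
Summed TPM of each family (vertical axis, from 0) in each library by day, with matrices as colors and shapes and bars at the mean of 3 libraries. Ephrin-B, class 3 semaphorin, ephrin-A, and Slit sums lie higher at days 22 and 32 than in every day 2 library, whereas Robo sums overlap at every day.

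The sequences upstream of 3 members are shown as examples of genes with high levels or large changes. EFNB2 had the highest level, EPHB3 the lowest adjusted p-value of any member at day 22, and EPHA1 was among the most abundant members at day 2 and fell. Each run is the window from 250 bases before to 50 bases after the annotated start in RefSeq (GRCh38.p14), on the strand of the gene, with CG dinucleotides in capitals.
EFNB2, chr13:106535613-106535912, minus strand: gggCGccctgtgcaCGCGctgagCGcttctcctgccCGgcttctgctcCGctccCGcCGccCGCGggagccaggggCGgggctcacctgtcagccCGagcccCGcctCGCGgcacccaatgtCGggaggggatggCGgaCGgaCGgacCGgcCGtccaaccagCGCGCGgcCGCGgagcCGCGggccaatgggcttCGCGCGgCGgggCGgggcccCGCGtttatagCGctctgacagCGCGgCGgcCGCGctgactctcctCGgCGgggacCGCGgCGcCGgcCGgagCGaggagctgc
EPHB3, chr3:184561535-184561834, plus strand: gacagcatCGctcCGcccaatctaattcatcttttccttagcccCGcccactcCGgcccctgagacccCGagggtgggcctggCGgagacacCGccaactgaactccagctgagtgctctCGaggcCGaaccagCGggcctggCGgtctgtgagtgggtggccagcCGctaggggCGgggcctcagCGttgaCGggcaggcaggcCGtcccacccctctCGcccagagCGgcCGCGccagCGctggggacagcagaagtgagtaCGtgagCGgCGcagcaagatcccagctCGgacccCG
EPHA1, chr7:143408807-143409106, minus strand: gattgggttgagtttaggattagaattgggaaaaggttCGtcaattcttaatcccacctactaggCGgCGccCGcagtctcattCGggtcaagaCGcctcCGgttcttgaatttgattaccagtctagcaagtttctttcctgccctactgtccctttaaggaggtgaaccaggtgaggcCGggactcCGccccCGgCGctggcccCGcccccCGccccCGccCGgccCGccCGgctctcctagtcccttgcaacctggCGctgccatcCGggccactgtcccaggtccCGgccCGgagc
The EFNB2 window held 49 CG dinucleotides at 78.7% G and C, the EPHB3 window 26 at 69.0%, and the EPHA1 window 21 at 62.0%. RefSeq windows were matched for 53 of the 58 members (84 windows), and their median was 66.2% G and C with 21.5 CG dinucleotides, beside 58.7% and 14.0 over all 35116 windows. TAATCC, the core letters bound by OTX2 and CRX, was searched on both strands and stood in 7.1% of the members' windows and in 6.4% of all windows. In the EPHA1 window it began 202 bases before the start on the strand of the gene and 234 bases before it on the opposite strand. TATAAA stood in 3.6% of the members' windows and in 11.5% of all. In the EFNB2 window it stood on the opposite strand 30 bases before the start. These matches describe letters in a window and were not tested for binding.

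Most of the guidance genes changed between days 2 and 22. Averaged over the 3 matrices, 32 members rose, 14 fell, and 12 did not pass an adjusted p-value under 0.05 in edgeR's quasi-likelihood test on the counts of all 27 libraries, with Benjamini-Hochberg adjustment over all genes. Of all genes tested, 18.2% were called higher and 16.9% lower. All 58 members had a mean of at least 1 CPM (counts scaled by library size) in some group, and among the 18409 genes with such a mean 6570 were called higher and 6036 lower. The members' median log2 fold change was 0.84, beside 0 over all genes. In TPM, all 9 libraries of day 22 lay above all 9 of day 2 for 28 members and below them for 7, against 10.4% and 5.99% of all genes. Those shares count all 44852 genes, many of which reached 1 CPM in no group. They thus do not set the members apart from other expressed genes. Fold changes below are on the log2 scale from counts with their standard errors, and run 0.23 lower than log2 ratios of TPM between these days because the TMM and TPM scalings differ. DESeq2, another normalization, a filter on low counts, and a fit without the lane block each gave the same 46 calls. PLXNB3 and ROBO1 passed in 9 and 21 of 33 alternative settings, which include leaving out each library, with a highest adjusted p-value of 0.198 and 0.358. EFNA4 was lost without the lane 2 libraries (adjusted p = 0.234).

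**Figure D3:**
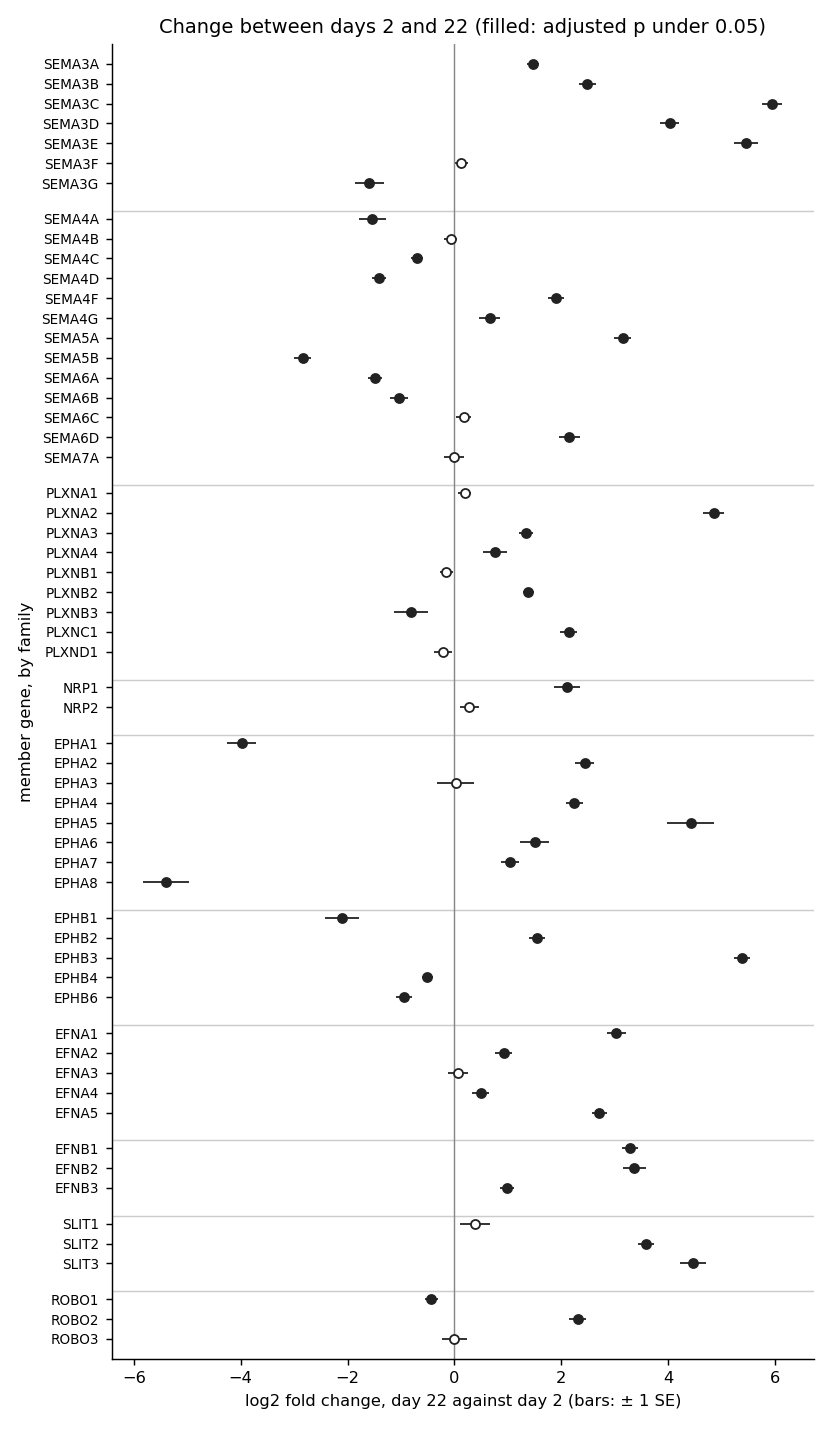
Log2 fold change of each member at day 22 against day 2 (horizontal axis, mean over 3 matrices, bars ± 1 SE) by family, with filled points for an adjusted p-value under 0.05. SEMA3C lies farthest to the right at 5.95 and EPHA8 farthest to the left at -5.39, and all 3 ephrin-B ligands are to the right of 0.

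Among the secreted class 3 semaphorins, 5 of 7 rose, 1 fell, and 1 did not pass. SEMA3C, a ligand for neuropilin and plexin receptors that also guides neural crest cells, went from 0.577, 1.32, and 3.22 TPM (lowest, median, and highest of 9 libraries) at day 2 to 57.6, 89.4, and 161 TPM at day 22. Its fold change of 5.95 ± 0.19 was the largest rise of the members (edgeR adjusted p = 2.66e-31, higher in 9 of 9 pairs of matrix and lane). The group means at day 22, 102 ± 51.7 TPM on LN523, 99.6 ± 26.5 on LN323, and 87.0 ± 26.4 on LN521 (SD, n = 3), lay within the spread of their libraries. SEMA3E, which can bind plexin D1 without a neuropilin, went from 0.647, 1.27, and 2.58 to 39.9, 73.4, and 137 TPM, by 5.46 ± 0.23. SEMA3D went from 2.18, 3.04, and 5.69 to 37.0, 62.7, and 89.9 TPM, by 4.03 ± 0.18. For these 3 genes every day 22 library lay above every day 2 library. SEMA3A, the repellent that collapses growth cones through neuropilin 1, was already at a median of 34.1 TPM at day 2 and reached 104 TPM, and SEMA3B went from 4.58 to 28.6 TPM. SEMA3G was the class 3 member that fell, from a median of 2.99 to 1.35 TPM, by 1.59 ± 0.27 on the log2 scale, with overlapping libraries. SEMA3F had medians of 72.3 and 78.0 TPM and did not pass (adjusted p = 0.547).

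SEMA3E, SEMA3A, and SEMA3D stand next to each other on the minus strand of chromosome 7 (GRCh38, GENCODE 44), with gaps of 306.6 and 502.8 kb, SEMA3D spanning 84995553 to 85187056. All 3 rose. EPHB6 and EPHA1, 519.2 kb apart on the same chromosome, both fell, by 0.94 ± 0.15 and 3.98 ± 0.27 on the log2 scale. Of the remaining neighbors within 1 Mb, none had members that were all called in 1 direction. EPHA8 and EPHB2, 107.2 kb apart on chromosome 1, went in opposite directions. EFNA4, EFNA3, and EFNA1, in a row on chromosome 1 with gaps of 9.3 and 40.3 kb, had log2 fold changes of 0.49, 0.07, and 3.03. ROBO2 and ROBO1, and PLXNA3 and PLXNB3, went in opposite directions, and SEMA3B rose while its neighbor SEMA3F did not pass.

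The transmembrane and GPI-anchored semaphorins were divided, with 4 of 13 higher, 6 lower, and 3 not past the test. SEMA5A, a thrombospondin-repeat semaphorin that confines retinal axons, went from 3.25, 4.88, and 10.8 TPM to 39.5, 55.3, and 80.5 TPM, a fold change of 3.15 ± 0.16. Its paralog SEMA5B went the other way, from 21.5, 29.5, and 40.7 to 2.86, 4.63, and 10.4 TPM, and had a log2 fold change of -2.84 ± 0.16 (edgeR adjusted p = 4.42e-21). For both genes the days did not overlap. SEMA6A, a ligand of plexins A2 and A4, fell from a median of 89.0 to 36.9 TPM and SEMA6B from 121 to 88.9 TPM, with log2 fold changes of -1.48 ± 0.13 and -1.03 ± 0.17. The SEMA6B value at day 22 was lowest in the lane 2 libraries of LN523 and LN323, at 30.3 and 30.2 TPM against 68.2 to 100 TPM elsewhere. These are the libraries with the highest mesenchyme markers, whose part in the value was not tested. SEMA4D, the plexin B1 ligand, fell from 20.5 to 8.69 TPM, SEMA4A, which is needed for photoreceptor survival in mice, from 9.13 to 3.69 TPM, and SEMA4C from 90.7 to 67.7 TPM. SEMA6D rose from 4.62 to 18.8 TPM, SEMA4F from 4.76 to 22.5 TPM, and SEMA4G from 3.17 to 7.19 TPM. SEMA4B, SEMA6C, and SEMA7A did not pass, with log2 fold changes of -0.07, 0.17, and -0.01.

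Of the 9 plexins, the signaling receptors for semaphorins, 5 rose, 1 fell, and 3 did not pass. PLXNA2, a receptor for class 6 semaphorins and a co-receptor for class 3, went from 0.358, 0.733, and 1.21 TPM to 11.2, 27.8, and 36.1 TPM, a fold change of 4.85 ± 0.19 (edgeR adjusted p = 6.55e-28). PLXNB2 was the most abundant plexin at each day and went from 65.9, 83.3, and 98.2 TPM to 210, 242, and 289 TPM, by 1.38 ± 0.10. PLXNC1, the receptor for SEMA7A, went from a median of 3.46 to 17.3 TPM, PLXNA3 from 5.63 to 17.7 TPM, and PLXNA4 from 1.56 to 3.29 TPM. PLXNA1, PLXNB1, and PLXND1 did not pass, at medians of 65.8 and 78.9, of 70.4 and 68.7, and of 19.0 and 19.9 TPM. The fall was that of PLXNB3, at 0.398 to 1.75 TPM at day 2 and 0.281 to 0.931 TPM at day 22, which shares 20.4% of its exonic bases with SRPK3 on the same strand. Of the neuropilins, the ligand-binding co-receptors of class 3 semaphorins, NRP1 rose from 1.26, 3.64, and 6.32 TPM to 8.01, 15.1, and 35.1 TPM, by 2.11 ± 0.24. NRP2 had medians of 8.28 and 11.8 TPM and did not pass (adjusted p = 0.281).

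All 3 ephrin-B ligands rose, and 4 of 5 ephrin-A ligands rose while EFNA3 did not pass. EFNB2, a transmembrane ligand of EphB receptors and EPHA4, was at 23.2, 19.6, and 26.6 TPM on LN523, at 29.3, 26.1, and 21.2 TPM on LN323, and at 34.2, 29.5, and 23.5 TPM on LN521 at day 2 (lanes 1 to 3). At day 22 it was at 119, 469, and 371 TPM on LN523, at 449, 521, and 504 TPM on LN323, and at 105, 141, and 426 TPM on LN521. Every day 22 library was above every day 2 library, and 1 LN523 library and 2 LN521 libraries, at 105 to 141 TPM, lay apart from the other 6 at 371 to 521 TPM. The fold change was 3.37 ± 0.21 (edgeR adjusted p = 1.03e-19, higher in 9 of 9 pairs). An annotated gene on the opposite strand covers 36.4% of the exonic bases of EFNB2, and the strand setting of the counting is not given in the sources used here. EFNB1, another EphB ligand, went from 12.2, 14.2, and 21.1 TPM to 111, 181, and 236 TPM, by 3.28 ± 0.15, and EFNB3 from a median of 26.0 to 57.4 TPM. EFNA1 went from a median of 6.00 to 60.9 TPM and EFNA5 from 11.9 to 78.8 TPM, the latter being a ligand known for its role in mapping retinal axons onto the midbrain, by 3.03 ± 0.18 and 2.71 ± 0.14. EFNA2 went from 36.2 to 80.5 TPM and EFNA4 from 44.8 to 70.9 TPM. EFNA3 had medians of 14.4 and 16.9 TPM, but it shares 43.9% and EFNA4 15.0% of its exonic bases with a readthrough gene that joins both, so the split of reads among them is uncertain.

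The Eph receptors changed in both directions. Of the EphA receptors, 5 rose and 2 fell, and of the EphB receptors 2 rose and 3 fell. EPHB3, a receptor kinase for ephrin-B ligands, went from 1.18, 1.95, and 2.81 TPM to 77.0, 93.9, and 103 TPM, with the lowest adjusted p-value of the members (5.38 ± 0.15, edgeR adjusted p = 6.39e-34). Its group means at day 22 were 90.4 ± 5.98 TPM on LN523, 94.4 ± 14.0 on LN323, and 90.9 ± 12.7 on LN521 (SD, n = 3), and they lay within the replicate spread of each other. EPHA2, which binds EFNA1 and is typical of epithelia, went from 21.2, 25.3, and 53.2 TPM to 92.6, 188, and 404 TPM, and EPHA4, which binds ligands of both ephrin classes, from 7.38, 15.7, and 25.6 to 41.2, 105, and 139 TPM. Both exceeded their day 2 values in every library. EPHA5, graded across the retina during axon mapping, rose by 4.42 ± 0.44 from a low level, from a median of 0.0759 to 1.13 TPM. EPHB2 went from a median of 20.2 to 62.0 TPM, EPHA6 from 1.78 to 4.78 TPM, and EPHA7 from 7.47 to 15.8 TPM.

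The largest fall of the members was that of EPHA8, from 4.37, 6.75, and 10.5 TPM to 0, 0.237, and 0.455 TPM, a log2 fold change of -5.39 ± 0.43 (edgeR adjusted p = 1.63e-15, lower in 9 of 9 pairs). EPHA1, an epithelial EphA receptor, went from 130, 164, and 224 TPM to 5.39, 8.50, and 27.7 TPM, a log2 fold change of -3.98 ± 0.27 (edgeR adjusted p = 4.27e-18). No day 22 library of either gene reached the day 2 range. The EPHA1 values at day 22 were highest at 27.7 and 22.7 TPM in the lane 2 libraries of LN523 and LN323, which held the most mesenchyme markers and the most epidermal markers (102 and 57.0 TPM against 20.9 to 48.9 TPM elsewhere), and at 24.2 TPM in the LN521 library with the most pluripotency markers, and the part of those cells was not tested. EPHB1, which marks ganglion cells whose axons stay on their own side at the chiasm, fell from a median of 2.95 to 0.836 TPM, a log2 fold change of -2.10 ± 0.32. EPHB6, which lacks kinase activity, fell from 26.6 to 16.3 TPM, and EPHB4, the venous receptor of EFNB2, from 183 to 144 TPM, by 0.51 ± 0.10 on the log2 scale. EPHA3 had medians of 2.85 and 2.11 TPM and did not pass.

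Of the Slit ligands 2 of 3 rose, while the Robo receptors took separate courses. SLIT2, a repellent of retinal ganglion cell axons, went from 1.17, 2.24, and 4.69 TPM to 28.6, 31.0, and 44.2 TPM, by 3.58 ± 0.15 (edgeR adjusted p = 2.49e-26). SLIT3 went from 0.150, 0.293, and 0.696 TPM to 5.03, 9.20, and 17.0 TPM, by 4.47 ± 0.24. Neither gene overlapped between the days. SLIT1 did not pass (adjusted p = 0.356), with medians of 2.38 and 1.89 TPM, and was higher in 4 of 9 pairs, with 1 LN521 library at 24.8 TPM. ROBO2, the main Slit receptor of retinal ganglion cell axons, went from 0.690, 1.15, and 3.28 TPM to 5.05, 7.85, and 13.3 TPM, by 2.31 ± 0.16. ROBO1, more abundant at both days, had medians of 60.4 and 49.3 TPM and fell by 0.43 ± 0.13 on the log2 scale, a call that limma on log2(TPM + 1) did not make (-0.21, adjusted p = 0.358). ROBO3, known from commissural axons, had a log2 fold change of 0 ± 0.24.

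**Figure D4:**
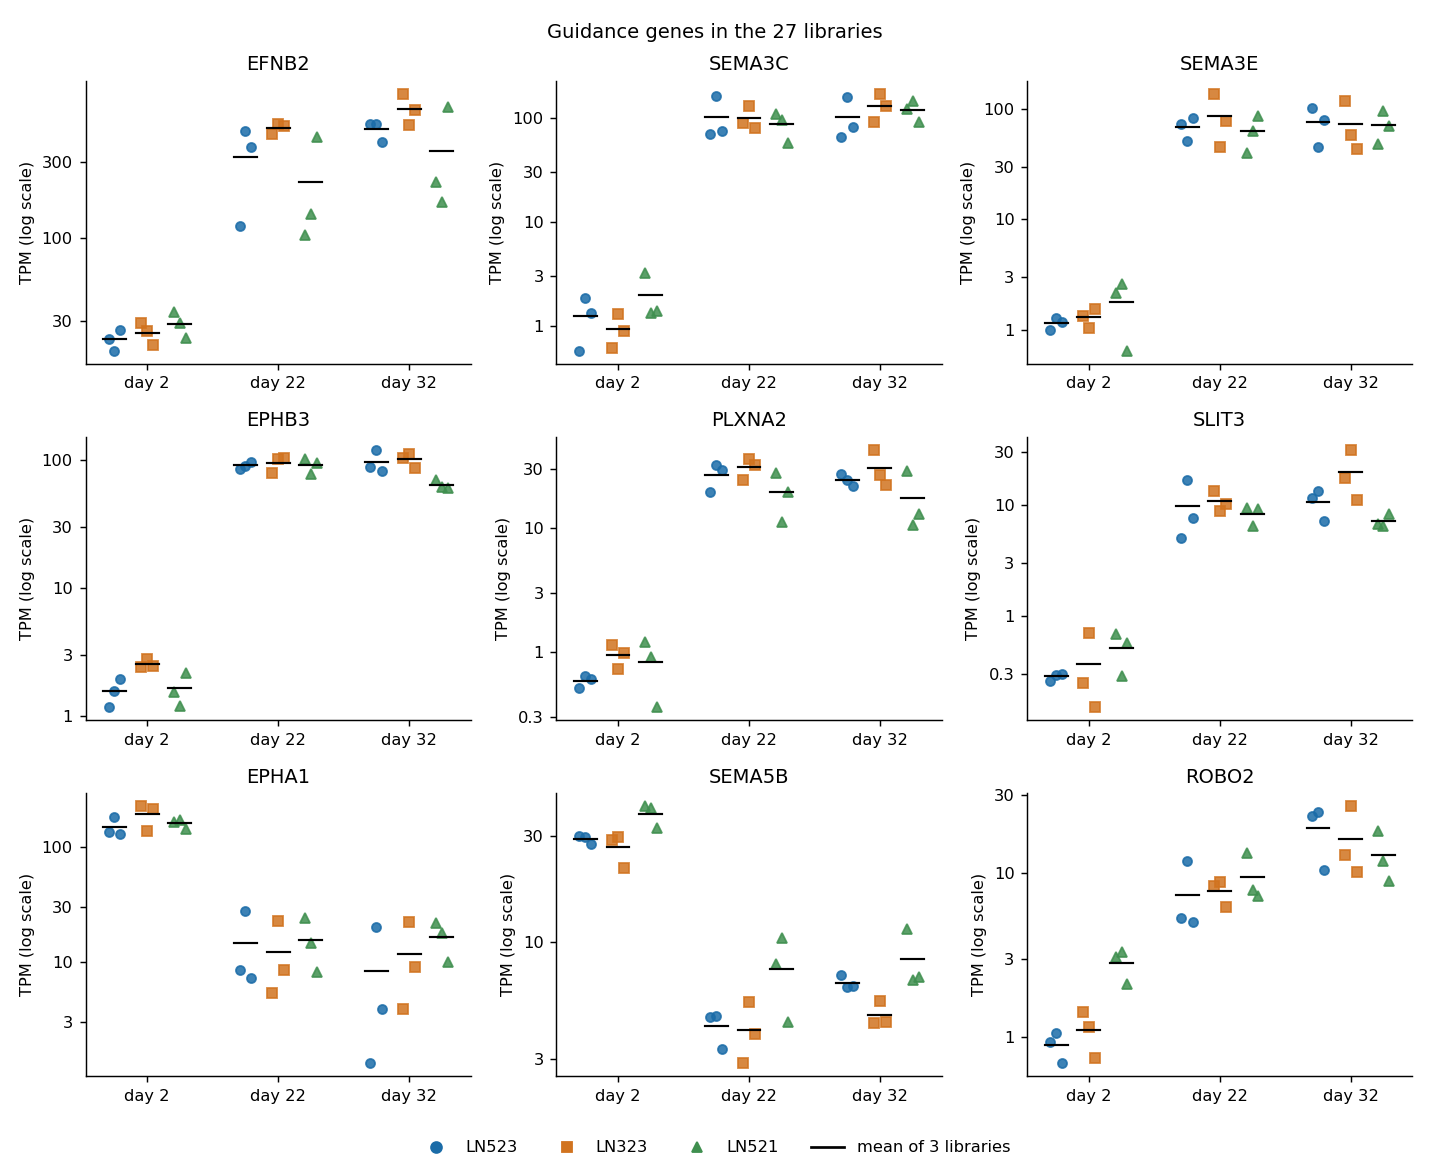
TPM in each of the 27 libraries (log vertical axis) for 9 members by day, with matrices as colors and shapes and bars at the mean of 3 libraries. EPHA1 and SEMA5B lie lower at days 22 and 32 than in any day 2 library, the other 7 lie higher, and ROBO2 rises again between days 22 and 32.

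Few members changed between days 22 and 32, when 4 rose and 0 fell in the same test and 14 had an unadjusted p-value under 0.05. Of all genes, 1.03% were called higher and 0.305% lower. Of the 18409 genes whose mean reached 1 CPM in some group, as all members did, 428 were called higher and 134 lower. In that set 2369 had an unadjusted p-value under 0.05. DESeq2 made the same 4 calls. In TPM all 58 members overlapped between these days, as did 99.9% of all genes. ROBO2 went from 5.31, 11.8, and 5.05 TPM to 22.3, 23.7, and 10.4 TPM on LN523, from 8.31, 8.80, and 6.17 to 12.9, 25.6, and 10.2 TPM on LN323, and from 13.3, 7.85, and 7.28 to 18.0, 11.9, and 8.89 TPM on LN521 (lanes 1 to 3). It was higher in 9 of 9 pairs of matrix and lane, by 0.94 ± 0.15 (edgeR adjusted p = 4.24e-05), and passed in all 33 alternative settings. PLXNC1 went from 13.7, 17.3, and 20.4 TPM (lowest, median, and highest) to 13.8, 31.0, and 43.7 TPM, by 0.81 ± 0.16 (edgeR adjusted p = 8.32e-04), higher in 8 of 9 pairs. SLIT1 went from 1.71, 1.89, and 24.8 to 1.89, 6.36, and 22.0 TPM, by 1.29 ± 0.28 (adjusted p = 0.0043, higher in 8 of 9 pairs). EPHA8 went from 0, 0.237, and 0.455 to 0.0376, 0.709, and 2.45 TPM, by 1.60 ± 0.40 (adjusted p = 0.0238, higher in 7 of 9 pairs), and every day 32 library stayed below its lowest day 2 value. These increases ran beside a higher sum of ganglion cell markers (median 107 to 427 TPM). Of these, ATOH7 had medians of 4.47 and 191 TPM, SNCG of 44.8 and 104, and GAP43 of 20.5 and 84.2. POU4F2 had medians of 0.655 and 14.7 TPM, ISL1 of 1.62 and 3.22, and RBPMS of 8.70 and 8.38. Median sums also rose for epidermal markers (42.5 to 308 TPM, with KRT17 at 20.8 and 282). Those of mesenchyme (1213 to 1761 TPM) and photoreceptor markers (39.2 to 56.9 TPM) rose too, and that of pigment epithelium fell (1238 to 737 TPM). The part of any of these cells was not tested.

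The calls for SLIT1 and EPHA8 were less stable. Without the lane 1 library of LN521 at day 32, SLIT1 was 0.96 (adjusted p = 0.065), EPHA8 1.41 (adjusted p = 0.0813), and 2 members were called, whereas without the lane 2 library of LN523 at day 22 there were 7. Leaving out the lane 2 libraries at all days gave 9 rises and 2 falls, among them EPHA3, EPHA5, and EFNB2, with 1412 genes called in all. The EPHA8 call lay near the threshold. Other single libraries that ended it, with log2 fold changes of 1.21 to 1.58 and adjusted p-values from 0.0505 to 0.167, were the LN523 libraries of day 22 lanes 1 and 3 and day 32 lane 2, those of LN323 at day 22 lane 1 and day 32 lane 2, and those of LN521 at day 2 lanes 1 and 3 and day 22 lane 2. SLIT1 and EPHA8 also lost their calls under the filter on low counts, at 1.28 and 1.59 (adjusted p = 0.1 and 0.178), and, with PLXNC1 (adjusted p = 0.0535), under limma on log2(TPM + 1).

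The study asked whether the laminin changes differentiation, which for the guidance genes is a comparison between matrices at each day and of their time courses. No member passed the test that the change over days differs between matrices (edgeR quasi-likelihood F test on 4 degrees of freedom), for which 0.0602% of all genes passed. In it 11 members had an unadjusted p-value under 0.05, the lowest adjusted p-value being 0.107 for ROBO2 and SEMA5A. Among the 18409 genes whose mean reached 1 CPM in some group, 1742 had such an unadjusted p-value and 26 passed. DESeq2 called 1 member, ROBO2. Without the lane 2 libraries 13 members passed, with 1391 genes in all, ROBO2 and SEMA5A among them, and with single libraries left out 0 to 3 passed. The count was 3 without the lane 2 libraries of LN323 at day 2 or LN523 at day 22 or the lane 3 library of LN521 at day 22. For DESeq2 and for single libraries left out, the share of all genes called is not given here. Those counts thus do not set the members apart from other genes.

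Between LN523 and LN323 no member passed at any day by edgeR or DESeq2, and 7, 1, and 3 members had an unadjusted p-value under 0.05 at days 2, 22, and 32. The background of called genes was 0.233%, 0.013%, and 0% of all genes tested. Among genes whose mean reached 1 CPM in some group, 89 of 18331, 5 of 18379, and 0 of 18375 were called. In that set 707, 350, and 623 had an unadjusted p-value under 0.05. Of the members, NRP1 at day 2 came nearest, at 1.09 ± 0.29 with an adjusted p-value of 0.0595, higher on LN523 in 2 of 3 lanes. Leaving out a library could turn this, though the share of all genes called in those fits is not given here. At day 2, 7 members passed without the lane 2 library of LN323 and 5 without that of LN523, and 1 passed without the lane 3 library of LN521. At day 22, 3 passed without the lane 2 library of LN523, and 1 without the LN521 library of lane 1 or lane 2. At day 32, 6 passed without the lane 1 library of LN521.

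Against LN521 a few members differed, and no member was called at more than 1 day. At day 2, 1 member differed between LN523 and LN521 (background 0.624%) and 4 between LN323 and LN521 (background 2.5%). These backgrounds are over all genes tested. Of the 18331 genes whose mean reached 1 CPM in some group, as all members did, 235 and 934 were called. The 2 comparisons share their LN521 libraries. ROBO2 was at 0.930, 1.06, and 0.690 TPM on LN523, at 1.42, 1.15, and 0.744 TPM on LN323, and at 3.08, 3.28, and 2.09 TPM on LN521. All LN521 libraries lay above all others. The log2 fold change was -1.45 ± 0.31 for LN523 (adjusted p = 0.00275) and -1.12 ± 0.31 for LN323 (adjusted p = 0.0196). SEMA4G, a transmembrane semaphorin, was at 1.67, 3.17, and 1.99 TPM on LN323 and at 7.19, 5.39, and 6.71 TPM on LN521, a log2 fold change of -1.28 ± 0.34 (adjusted p = 0.0106). The groups did not overlap, but 28.0% of its exonic bases are shared with genes on the opposite strand. EPHA2 was higher on LN323, at 33.5, 25.3, and 53.2 TPM against 22.2, 21.2, and 21.9 TPM, by 1.00 ± 0.22 (adjusted p = 6.08e-04). EPHA3 was at 2.22, 2.59, and 0.335 TPM on LN323 and at 5.15, 4.74, and 2.85 TPM on LN521, by -1.18 ± 0.34 (adjusted p = 0.0273). The TMM scaling put LN523 and LN323 libraries 0.28 and 0.35 higher on the log2 scale relative to LN521 than TPM does at this day, so that on the TPM scale the falls are larger and the EPHA2 rise is smaller.

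These day 2 calls were lost when some libraries were left out, in part with a fold change of similar size. EPHA2 was 0.59 (adjusted p = 0.463) without the lane 3 library of LN323. ROBO2 for LN523 was lost without the lane 1 library of LN523 or the lane 1 or 2 library of LN521 (log2 fold changes of -1.52 to -1.35, adjusted p from 0.0663 to 0.244), and for LN323 without any of 6 of the 9 libraries (-1.28 to -1.04, adjusted p from 0.0536 to 0.201). SEMA4G was lost without the lane 1 or 3 library of LN323 or of LN521 (-1.24 to -1.07, adjusted p from 0.0699 to 0.584). EPHA3 was lost without any of 6 libraries (-1.36 to -0.55, adjusted p from 0.0727 to 0.886), the smallest being without the lane 3 library of LN323, and under DESeq2 (-1.20, adjusted p = 0.765). The number of members called between LN323 and LN521 was 16 without the lane 2 library of LN323 and 0 without that of lane 3, and it was 9 in the fit without the lane block. The share of all genes called in these fits is not given here.

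At day 22, EPHA4 was at 122, 78.6, and 139 TPM on LN523, at 110, 83.8, and 105 TPM on LN323, and at 60.6, 41.2, and 105 TPM on LN521. It was higher in 3 of 3 lanes on LN523 by 0.75 ± 0.17 (adjusted p = 0.0071) and on LN323 by 0.65 ± 0.17 (adjusted p = 0.0402), though the groups overlapped. In all, 3 members differed between LN523 and LN521 (background 0.572%) and 4 between LN323 and LN521 (background 0.616%). Of the 18379 genes tested whose mean reached 1 CPM in some group, 219 and 235 were called. EFNB2 on LN323 lay at 449 to 521 TPM, above all LN521 libraries, by 1.42 ± 0.21 (adjusted p = 1.13e-06). On LN523 it was at 119 to 469 TPM, and its difference from LN521 was not called. ROBO3 was at 5.88, 3.35, and 5.28 TPM on LN523, at 5.76, 3.20, and 6.38 TPM on LN323, and at 35.3, 6.90, and 7.91 TPM on LN521, by -1.52 ± 0.28 (adjusted p = 4.87e-04) and -1.40 ± 0.28 (adjusted p = 0.00161). SLIT1 was at 1.84, 1.89, and 2.31 TPM on LN523, at 1.97, 1.73, and 1.72 TPM on LN323, and at 24.8, 5.74, and 1.71 TPM on LN521. It was lower in 2 of 3 lanes, by -1.92 ± 0.38 (adjusted p = 0.00115) and -2.09 ± 0.37 (adjusted p = 1.4e-04). The highest LN521 value of both genes was in the lane 1 library that held 190 TPM of pluripotency markers and 69.7 TPM of 5 forebrain markers, against 8.46 to 40.1 TPM of the latter in the other libraries of the day. The same library held 325 TPM of the ganglion cell markers, against 33.8 to 188 TPM in the others, and the part of any of these cells was not tested. Without that library ROBO3 was -0.83 and -0.73 (adjusted p = 0.249 and 0.371) and SLIT1 -0.79 and -0.93 (0.662 and 0.337).

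ROBO3 and SLIT1 also lost both calls without the lane 2 or 3 library of LN323 or the lane 3 library of LN523, with log2 fold changes of -1.71 to -1.36 and of -2.40 to -1.78. Without the lane 1 library of LN323, ROBO3 lost the LN323 call (-1.01, adjusted p = 1) and SLIT1 both (-1.73 and -1.57, adjusted p = 0.205 and 1), and without the lane 1 library of LN523 both genes lost the LN523 call (-1.21 and -1.24, adjusted p = 0.127 and 0.468). Each of these day 22 calls was lost without the lane block (adjusted p from 0.451 to 0.904), where the log2 fold changes were 0.71 and 0.56 for EPHA4, 1.15 for EFNB2, -1.77 and -1.65 for ROBO3, and -2.40 and -2.53 for SLIT1, and in the fit on all 27 libraries. EFNB2 was 0.90 (adjusted p = 0.587) without the lane 1 library of LN323. EPHA4 passed in 6 of 15 alternatives for LN523 and in 3 of 15 for LN323. The counts of members called ran from 0 to 7 for LN523 and from 0 to 6 for LN323 as single libraries were left out, again without the share of all genes. DESeq2 called 2 members in each comparison.

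At day 32, SEMA5A alone differed, and did so in both comparisons with LN521 (background 0.0609% for LN523 and 0.117% for LN323). Of the 18375 genes tested whose mean reached 1 CPM in some group, 24 and 46 were called. SEMA5A was at 103, 50.4, and 87.8 TPM on LN523, at 88.3, 67.6, and 84.9 TPM on LN323, and at 22.0, 28.2, and 46.3 TPM on LN521. The groups did not overlap, and both fold changes were 1.32 ± 0.23 (adjusted p = 0.0221 and 0.0133), higher in 3 of 3 lanes. The call for LN523 against LN521 was lost without the lane 1 or 3 library of LN523 or the lane 2 library of LN323 (1.03 to 1.45, adjusted p from 0.155 to 0.498). The call for LN323 against LN521 was lost without the lane 2 library of LN323 or LN521 or the lane 3 library of LN523 (1.27 to 1.46, adjusted p from 0.0554 to 0.645). Both were lost without all lane 2 libraries, at 1.56 and 1.38 (adjusted p = 0.249 and 0.992), and without the lane block, at 1.32 and 1.28 (0.276 and 0.12), so that the fold change stayed as large or nearly so. Without the lane 1 library of LN521, which stood apart in its pluripotency markers (37.6 TPM), 17 members passed between LN523 and LN521 (13 higher and 4 lower) and 19 between LN323 and LN521 (14 higher and 5 lower), PLXNA2, NRP2, EPHB3, and SEMA5A among them in both. The share of all genes called in that fit is not given here, so these counts do not set the members apart from other genes.

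**Figure D5:**
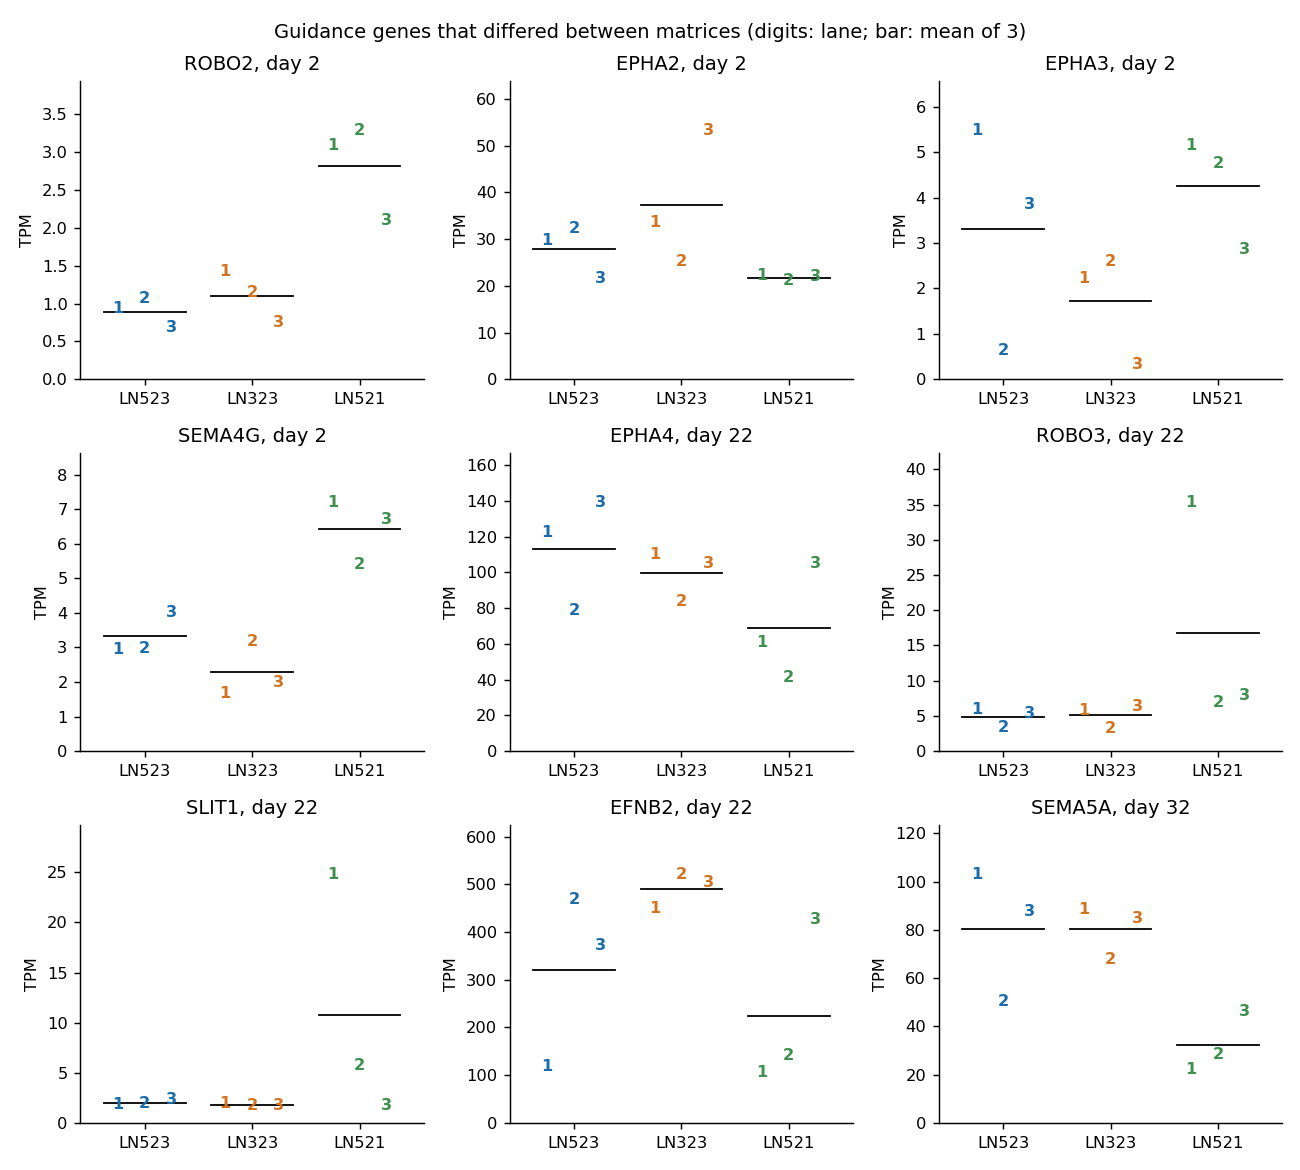
TPM (vertical axis, from 0) of the 9 members that passed between matrices at the day of the call, with the lane number as the symbol and bars at the mean of 3 libraries. ROBO2, SEMA4G, and SEMA5A separate LN521 from both other matrices, whereas the LN521 means of ROBO3 and SLIT1 are set by the lane 1 library at 35.3 and 24.8 TPM.

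All matrix calls of members were lost under edgeR's filter on low counts, where 0 genes of the whole table passed in any of the 9 comparisons, and those members had adjusted p-values from 0.202 to 0.956 (edgeR quasi-likelihood test). DESeq2, run without edgeR's filter but with its own default filter on mean counts, called 486 to 897 genes in each of the 9 comparisons.

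The other genes of axon guidance also changed in both directions. Of 70 genes listed for netrin and RGM signaling, further receptors, ligands, and co-factors, and intracellular effectors, 35 rose and 18 fell between days 2 and 22, with a median log2 fold change of 0.47. Over all genes the called shares were 18.2% higher and 16.9% lower. Of the 22 receptors, ligands, and co-factors, 15 rose and 4 fell, of the 15 netrin and RGM genes 8 rose and 4 fell, and of the 33 effectors 12 rose and 10 fell. FLRT3, a ligand of UNC5 receptors that also binds ROBO1, went from 1.27, 3.94, and 7.34 TPM to 181, 353, and 453 TPM, by 6.14 ± 0.22. CNTN4, a contactin on axons, and FLRT2 rose by 4.72 ± 0.17 and 4.60 ± 0.20. DPYSL3, a collapsin response mediator that relays semaphorin signals, fell from 502, 690, and 801 to 49.1, 70.5, and 192 TPM, by 3.31 ± 0.16 on the log2 scale. The netrin receptor UNC5A and the secreted repellent DRAXIN fell by 2.05 ± 0.27 and 1.98 ± 0.18 on that scale. Between days 22 and 32, 5 rose and 0 fell, beside 1.03% and 0.305% of all genes. They were CNTN2 (2.39 ± 0.36), SLITRK2 (1.30 ± 0.27), NFASC (1.03 ± 0.28), CRMP1 (0.66 ± 0.18), and NRCAM (0.58 ± 0.15). CNTN2, NFASC, and NRCAM are adhesion molecules of axons, and CRMP1 is a semaphorin effector. Between matrices, LN523 exceeded LN521 in CHN1 at day 2 and in CNTN2 at day 32. At day 22, DPYSL3, DRAXIN, and NFASC were called lower on LN523 and on LN323 than on LN521, and CRMP1 on LN323 (background 0.572% and 0.616%). DPYSL3 was lower in 3 of 3 lanes, at 192, 97.2, and 77.2 TPM on LN521 against 49.1 to 73.3 TPM on the other matrices. The others were lower in 2 of 3 lanes, and their highest value was in the lane 1 library of LN521 that stood apart, at 27.6 TPM for DRAXIN, 9.54 for NFASC, and 163 for CRMP1. Without that library NFASC was -0.74 and -0.50 (edgeR adjusted p = 0.911 and 1), DRAXIN -0.77 in both (0.146 and 0.0775), CRMP1 -0.05 (adjusted p = 1), and DPYSL3 -0.56 and -0.60 (0.0834 and 0.0268). The day 22 calls were also each lost without at least 1 other library, without the lane block, and, like those of CHN1 and CNTN2, under the filter on low counts. CHN1 was lost without any of 6 of the 9 libraries (0.63 to 0.85) but kept its call without the lane block. CNTN2 was lost without the lane 3 library of LN523 (1.98, edgeR adjusted p = 0.0977) and without the lane block (1.73, adjusted p = 0.276).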

How the data were processed

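Bulk RNA-seq was analysed for 27 libraries of 9 groups (matrix by day), grouped by their labels. Per the labels and the study's methods, libraries were stranded total RNA depleted of ribosomal RNA, reads were trimmed with cutadapt, aligned to GRCh38 by STAR 2.5.2b, and assigned to genes by featureCounts 1.5.1. Genes of biotype rRNA and mitochondrial genes were removed. The authors deposited the whole-number counts per gene, without normalization, and TPM values made from them. Of the non-zero counts 68.8% were even, which would arise if each read pair were counted by both of its mates, and counting error would then be larger than the counts imply. Genes were named by Ensembl identifier in GENCODE 44 (43052 of 44852 matched), which is of the same build.

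The quasi-likelihood test of edgeR 4.0.16 (R 4.3.3) was run on TMM-normalized counts of genes whose total exceeded 1, with the lane (equal to the replicate number in the titles) as a block as in the study's methods. Time and interaction contrasts used all 27 libraries, and matrix contrasts the 9 of a day. P-values were adjusted by Benjamini-Hochberg over all genes with a threshold of 0.05. Errors are standard errors. The alternatives were DESeq2 1.42.0, RLE normalization, the filterByExpr filter, no lane block, a matrix fit on all 27 libraries, limma 3.58.1 on log2 TPM with a pseudocount of 1 (time), and leaving out each library. Leaving out all lane 2 libraries, and the alternatives for other axon guidance genes between matrices, were added after seeing the data. The fits were also run on counts simulated with known fold changes, with no lane differences and no libraries that stood apart. That run therefore cannot show how such libraries affect the matrix calls. Same-lane deviations from group means over 13476 genes correlated at 0.452 to 0.822 between LN523 and LN323 at days 22 and 32, and at -0.705 to 0.108 at day 2. Those of LN521 with LN523 or LN323 at days 22 and 32 correlated at -0.288 to -0.155 in lane 1 and at 0.157 to 0.453 in lanes 2 and 3, so the lanes did not pair the LN521 libraries throughout.

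Members and lists were chosen with earlier results of these data known. Named with full values are up to 10 rises and 10 falls per time comparison past the threshold with the same sign in all 9 pairs, members past the threshold with the same sign in all 3 lanes per matrix comparison, and the most abundant member of each family. Up to 3 rises and 3 falls of the other genes were named. Further names, SLIT1 between matrices, and the 3 promoters were chosen after their values were seen.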

Additional observations from a re-analysis of the deposited data

How the results depend on the processing

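The 46 changes of members between days 2 and 22 were 44 to 47 as single libraries were left out, 47 under limma on log2(TPM + 1), and 45 without the lane 2 libraries. No fold change of a named member turned its direction under any alternative run. The 4 changes between days 22 and 32 became 2 under the filterByExpr filter, 1 under limma, 11 without the lane 2 libraries, and 2 to 7 without single libraries. The interaction count of 0 became 1 with DESeq2, 13 without the lane 2 libraries, and 0 to 3 without single libraries. Under these alternatives, the numbers of all genes called for the later days and the interaction are given above only without the lane 2 libraries.

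Between matrices the counts were far less stable. They are given without the share of all genes called in the same fits, and so do not set the members apart from other genes. Between LN523 and LN323 they ran from 0 to 7 at day 2, 0 to 3 at day 22, and 0 to 6 at day 32 without single libraries, and were 7 and 2 at days 2 and 22 without the lane 2 libraries. Between LN523 and LN521 they ran from 0 to 3, 0 to 7, and 0 to 17 at days 2, 22, and 32, and between LN323 and LN521 from 0 to 16, 0 to 6, and 0 to 19. The filterByExpr filter gave 0 in all 6 comparisons with LN521. The fit on all 27 libraries gave 0 for LN323 at day 2 and for both matrices at day 22. Without the replicate block on lanes there were 9 for LN323 at day 2 and 0 for both matrices at days 22 and 32, and the block changed no other count of calls. Without the lane 2 libraries there were 11 for LN323 at day 2, 6 for LN523 at day 22, and 0 for both at day 32. At day 32 DESeq2 gave 2 for LN523 and 4 for LN323, where RLE normalization gave 3, and at day 22 DESeq2 gave 2 for LN323. The cause of these differences was not tested. With 3 libraries a group and a variation between replicates of 37.4% to 44.4% within days, a missed threshold does not show equal levels.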
